A study of Mus musculus with 12 samples.

Results

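The genes described here encode the machinery that releases neurotransmitter from synaptic vesicles. They were chosen by symbol: the synaptotagmins, syntaxins, VAMPs, complexins, synapsins, Sv2 proteins, syntaxin-binding proteins, Unc13 and Rims proteins, and SNAP proteins that the platform annotation names by a single symbol on a probe set. The rule took 66 of 19938 genes, measured by 75 of 28853 probe sets, and it used no measured value. These were 17 synaptotagmins, 14 syntaxins, 8 Unc13 and Rims genes, 6 VAMPs, 6 synapsins and Sv2 genes, 6 syntaxin-binding proteins, 5 SNAP proteins and 4 complexins. A probe set measured 63 of them alone, while Unc13c had 7 probe sets, Unc13a had 3 and Stxbp4 had 2, which were averaged. Vamp2 was not analysed here. A symbol rule collects genes by name, so that it also took Snap91, the clathrin adaptor AP180, which is not a SNARE, and syntaxins and VAMPs of the Golgi and of endosomes.

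The mice were adolescent males of the outbred Swiss CD-1 stock, and RNA was taken from their anterior striata. All animals went through conditioned place preference training over 10 days, in which an animal learns to associate a compartment with the treatment it received, given 15 minutes before it entered that compartment. The 4 groups received saline, ethanol, mephedrone (a stimulant of the synthetic cathinone class) or mephedrone with ethanol, here called the combination, and each had 3 arrays. No genetic alteration, dose or batch is named in the labels, and they do not say whether the 3 arrays of a group were 3 animals, so that p-values measure only how far these samples spread, and that spread may be technical. Striatal tissue was measured in bulk, and fewer cells of a type and less RNA per cell cannot be told apart. The deposited values are log2 differences from each probe set's median over the 12 arrays. A value of 0 therefore lies midway between the middle arrays of that probe set. Neither the absolute level of a gene nor an order of levels between genes can be read from the values.

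Release of transmitter is the fusion of a vesicle with the presynaptic membrane. A VAMP on the vesicle zips together with a syntaxin and a SNAP protein on the plasma membrane into a SNARE complex, which syntaxin-binding proteins (the Stxbp genes) and Munc13 proteins (the Unc13 genes) help to assemble. Synaptotagmins sense calcium and trigger fusion, complexins clamp and promote it, Rims proteins hold vesicles and calcium channels together at the active zone, and synapsins keep a reserve of vesicles tethered to the cytoskeleton. In the striatum the machinery is found both in terminals that arrive from cortex, thalamus and midbrain, whose messenger RNA is mostly made in cell bodies elsewhere, and in local neurons, most of them inhibitory projection neurons. Mephedrone acts on the monoamine transporters of those terminals that release monoamines.

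Some arrays stood apart in ways that the treatments do not share. The SD of all probe set values was 0.17 on combination replicate 3 and 0.13 on ethanol replicate 1, against 0.068 to 0.10 on the other 10 arrays. A list of choroid plexus markers (12 of 14 measured) had means of -0.11 to 1.09 in saline, -0.10 to 0.82 in ethanol, -0.18 to 0.61 in mephedrone and -0.032 to 1.87 in the combination, highest on combination replicate 3. Cortical excitatory neuron markers (9 of 10) had means of -0.34 to 0.34, -0.49 to 0.21, -0.056 to 0.32 and -0.10 to 0.78 in the same order, again highest on combination replicate 3. That array also had the lowest mean of the striatal projection neuron markers (11 of 14), at -0.29, with -0.16 on ethanol replicate 1 and -0.039 to 0.072 on the others, and the highest oligodendrocyte mean, at 0.50. Because the values are centred, they cannot show whether the striatal markers are present at a high level. The part of tissue make-up in the treatment differences was not tested beyond the fits with list means as covariates that are given below.

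Across the 4 groups, none of the 66 genes passed an adjusted p of 0.05 in a moderated F test (limma, with Benjamini-Hochberg adjustment over 19938 genes), beside 0.00502% of all genes, that is 1 gene. At an unadjusted p under 0.05 there were 8 of 66 (12.1%), beside 8.35% of all genes. The 6 with the smallest unadjusted p in the F test were Vamp4, Sv2c, Syt10, Stxbp5l, Unc13a and Vamp7, with limma adjusted p from 0.331 to 0.502. The same 6 had the smallest p in the comparison of arrays with and without mephedrone.

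The comparison of 6 arrays given mephedrone, alone or with ethanol, with the 6 that were not is called the mephedrone main effect. It gave the smallest adjusted p-values of these genes. None of the 66 passed (limma adjusted p, 0.115% of all genes called, 23 genes), and 7 of 66 (10.6%) had an unadjusted p under 0.05 beside 12.6% of all genes, so that nominal differences were no more frequent here than elsewhere. The differences lay above 0 for 46 genes and below 0 for 20, with a median of 0.037 on the log2 scale, beside 53.2% above 0 and a median of 0.0038 over all genes. Without combination replicate 3 the median was 0.011, with 40 above 0, and with choroid plexus and cortical list means as covariates it was 0.0061, with 35 above 0. Without ethanol replicate 1 and combination replicate 3 together it was 0.029, with 41 above 0. Absolute differences over 0.2 occurred in 3 genes, Syt10, Sv2c and Cplx3 (4.55%, beside 1.35% of all genes). The Cplx3 difference was 0.21 with all arrays and 0.079 without combination replicate 3. For 56 of 66 the 95% interval lay within 0.3 of 0 on either side, beside 19093 of all 19938 genes.

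Among the VAMPs, the vesicle-side SNAREs, Vamp4 (NCBI Gene 53330) had the smallest p. It is found on the trans-Golgi network and endosomes and takes part in the retrieval of membrane after intense release. Its log2 values were -0.19, -0.15 and -0.051 in saline, -0.065, -0.12 and -0.022 in ethanol, 0.19, 0.034 and 0.075 in mephedrone and 0.022, 0.13 and 0.050 in the combination. Each of the 6 mephedrone-treated arrays was above each of the other 6, with no overlap. The mephedrone main effect was 0.18 ± 0.036 (SE, n = 6 against 6), a ratio of 1.13, with a 95% interval of 0.10 to 0.26 and a limma adjusted p of 0.0772. Vamp7 (NCBI Gene 20955), a tetanus-insensitive VAMP of late endosomes and growing neurites, had values of -0.065, -0.13 and 0.029 in saline, -0.053, -0.0080 and -0.075 in ethanol, 0.019, -0.0026 and 0.0026 in mephedrone and 0.0085, 0.18 and 0.17 in the combination. The combination replicates 2 and 3 were highest, while combination replicate 1 lay within the mephedrone range. Its main effect was 0.11 ± 0.037 (limma adjusted p = 0.212). Over the 6 VAMPs the main effect had a median of 0.10, with 5 above 0. Vamp1, Vamp3 and Vamp8 had their highest values on combination replicate 3, at 0.72, 0.40 and 0.46. The VAMP median was 0.024 for mephedrone against saline and 0.18 for the combination against saline.

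Among the synapsins and Sv2 proteins, Sv2c (NCBI Gene 75209) stood first. Sv2 proteins are glycoproteins of the vesicle membrane, and Sv2c is the form enriched in the basal ganglia. Its values were -0.095, -0.020 and -0.0060 in saline, -0.18, -0.025 and 0.0060 in ethanol, 0.26, 0.15 and 0.21 in mephedrone and 0.20, 0.22 and -0.049 in the combination. Of the mephedrone-treated arrays 5 lay above all saline and ethanol arrays, and the exception was combination replicate 3, the array with the highest cortical and choroid plexus means. The main effect was 0.22 ± 0.050, a ratio of 1.16, with a 95% interval of 0.11 to 0.33 and a limma adjusted p of 0.11. Without combination replicate 3 it was 0.26, with a limma adjusted p of 0.0294. The other 5 of this role, Sv2a, Sv2b, Syn1, Syn2 and Syn3, did not pass, and 5 of the 6 lay above 0, with a median of 0.043.

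Among the synaptotagmins, Syt10 (NCBI Gene 54526) had the largest main effect of all 66 genes. Syt10 is a calcium sensor known from the regulated secretion of IGF-1 in olfactory bulb neurons and from its induction by seizures. Its values were -0.056, -0.43 and -0.40 in saline, 0.056, -0.22 and -0.15 in ethanol, 0.23, 0.15 and 0.34 in mephedrone and 0.25, 0.40 and -0.20 in the combination. As for Sv2c, 5 of the mephedrone-treated arrays lay above all 6 others and combination replicate 3 fell among the saline and ethanol arrays. The main effect was 0.40 ± 0.10, a ratio of 1.32, with a 95% interval of 0.17 to 0.62 and a limma adjusted p of 0.129. Without combination replicate 3 it was 0.49 with a limma adjusted p of 0.0392. The other 16 synaptotagmins gave no call, and the main effect of all 17 had a median of 0.018 with 10 above 0.

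Without combination replicate 3, Sv2c and Syt10 were thus the 2 of 66 genes called in the mephedrone main effect, beside 0.15% of all genes (30 genes). For both genes that array was the only mephedrone-treated one among the saline and ethanol values. Leaving it out, or giving it less weight, therefore favours these calls, and they are no independent evidence for them. Without ethanol replicate 1 as well, Sv2c at 0.23 and Syt10 at 0.53 were called, both with a limma adjusted p of 0.0179, beside 1.07% of all genes. With array quality weights, which gave ethanol replicate 1 a weight of 0.34 and combination replicate 3 one of 0.37, 3 were called beside 1.79% of all genes. These were Syt10 at 0.48 (limma adjusted p = 0.0208), Sv2c at 0.22 (0.0223) and Vamp4 at 0.17 (0.0436). With the choroid plexus and cortical means as covariates the differences were 0.47 for Syt10, 0.25 for Sv2c and 0.18 for Vamp4, and none of the 66 was called.

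**Figure D1:**
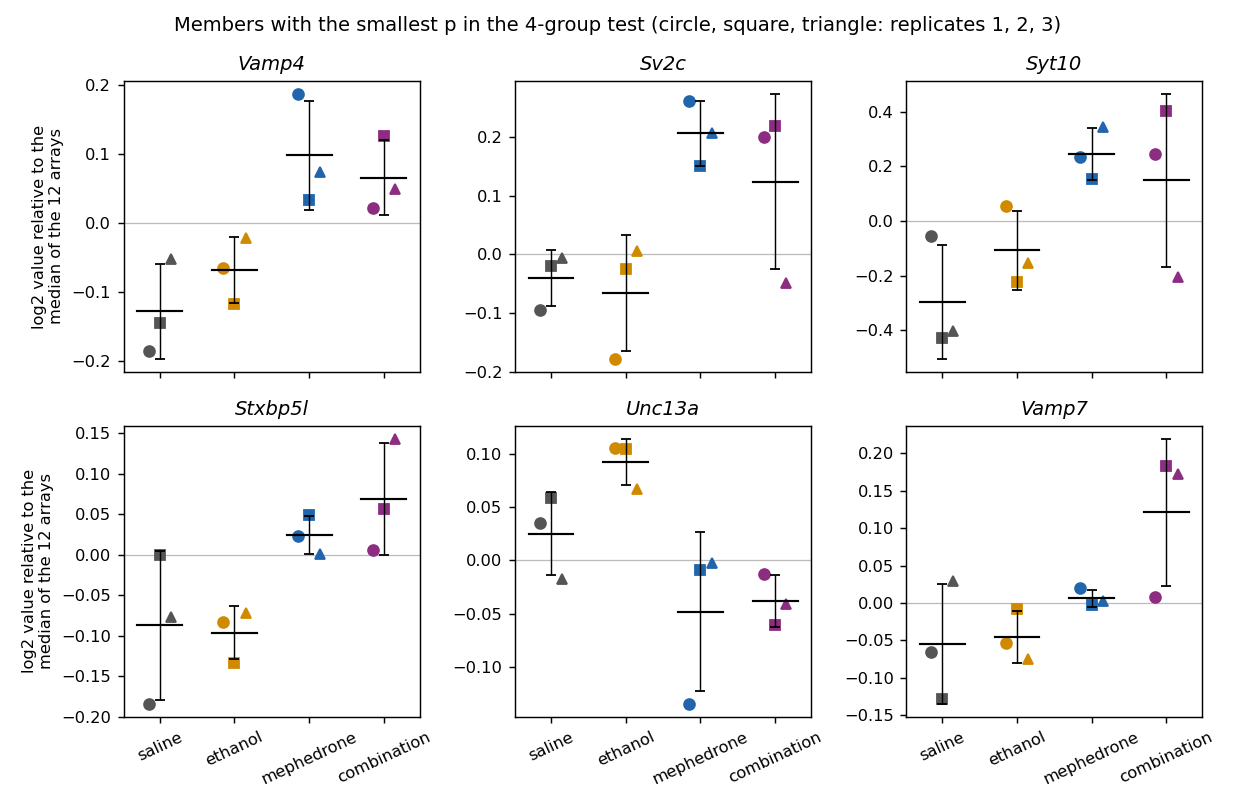
Log2 value relative to the probe set median (vertical axis) of Vamp4, Sv2c, Syt10, Stxbp5l, Unc13a and Vamp7 on each of the 12 arrays, by treatment group; points are arrays and bars are means of 3. Vamp4 and Stxbp5l separate all 6 mephedrone-treated arrays from the other 6, whereas Sv2c and Syt10 have combination replicate 3 among the saline and ethanol values.

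The syntaxin-binding proteins assist or block SNARE assembly. Stxbp5l (NCBI Gene 207227), tomosyn-2, an inhibitor that occupies syntaxin in place of a VAMP, had values of -0.18, -0.00090 and -0.077 in saline, -0.083, -0.13 and -0.072 in ethanol, 0.023, 0.048 and 0.00090 in mephedrone and 0.0059, 0.056 and 0.14 in the combination. Its 6 mephedrone-treated arrays were again all above the other 6, although the lowest of the former, at 0.0009, and the highest of the latter, at -0.0009, were close. The main effect was 0.14 ± 0.035, with a 95% interval of 0.061 to 0.21 and a limma adjusted p of 0.128. All 6 genes of this role lay above 0, with a median of 0.052. Vamp4 and Stxbp5l were the 2 of 66 genes (3.03%) whose 6 mephedrone-treated arrays did not overlap the other 6, beside 1.27% of all genes. Stxbp3 (Munc18c), a binding partner of plasma membrane syntaxins outside synapses, had the widest range of this role, 0.53, with values of -0.21, 0.067 and 0.10 in saline, -0.065, -0.093 and -0.18 in ethanol, 0.039, -0.039 and -0.10 in mephedrone and 0.091, 0.057 and 0.32 in the combination. Its highest array was combination replicate 3 and its lowest saline replicate 1.

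Unc13 and Rims proteins prime vesicles for fusion. Unc13a (NCBI Gene 382018), Munc13-1, the main priming factor of forebrain synapses, alone among the 6 genes with the smallest F test p had a negative mephedrone main effect. Its values were 0.035, 0.058 and -0.018 in saline, 0.11, 0.10 and 0.067 in ethanol, -0.13, -0.0086 and -0.0020 in mephedrone and -0.012, -0.061 and -0.041 in the combination. The 3 ethanol arrays were the highest and mephedrone replicate 1 the lowest, and the 2 saline replicates with the higher values also lay above all mephedrone-treated arrays. The main effect was -0.10 ± 0.029 (95% interval -0.17 to -0.038, limma adjusted p = 0.154), and its 3 probe sets taken alone gave -0.11, -0.080 and -0.11. The median over the 8 genes of this role was -0.0052, with 4 above 0. Syntaxins, the plasma membrane and organelle SNAREs, had a median of 0.041 with 11 of 14 above 0. The 5 SNAP proteins had 0.013 with 3 above 0, and the 4 complexins had -0.012 with 2 above 0.

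**Figure D2:**
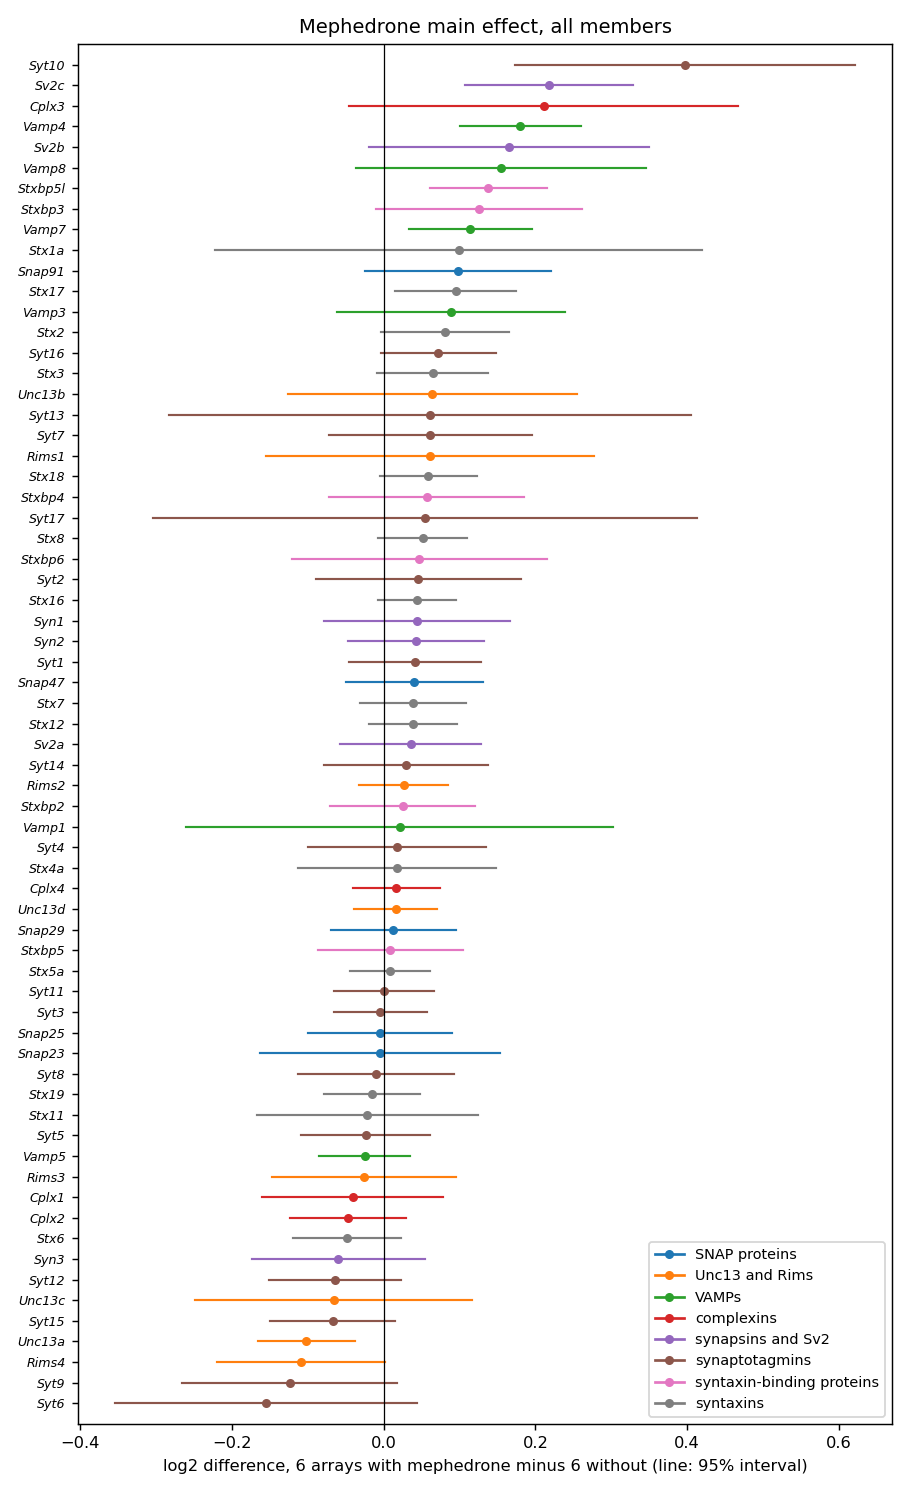
Mephedrone main effect with its 95% interval for each of the 66 genes. The horizontal axis is the log2 difference, mephedrone-treated arrays minus saline and ethanol arrays. Genes are ordered by this difference and coloured by role. Most intervals contain 0; Syt10 and Sv2c have the highest positive estimates whose intervals exclude 0, and Unc13a the lowest negative one.

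The RefSeq promoter windows of the 4 genes with the smallest mephedrone main effect p are shown because these genes led that comparison, although none passed in it. Each line gives 250 bases before a gene start in GRCm38.p6, read 5′ to 3′ on the strand of the gene. Capitals mark CACGTG, an E-box, or TGACG, a half-site of the cAMP response element, which is CGTCA where it lies on the other strand. The windows are chr1:162570265-162570514 on the + strand for Vamp4, chr13:96132578-96132827 on the - strand for Sv2c, chr15:89841861-89842110 on the - strand for Syt10, and chr16:37384959-37385208 on the - strand for Stxbp5l.
Vamp4: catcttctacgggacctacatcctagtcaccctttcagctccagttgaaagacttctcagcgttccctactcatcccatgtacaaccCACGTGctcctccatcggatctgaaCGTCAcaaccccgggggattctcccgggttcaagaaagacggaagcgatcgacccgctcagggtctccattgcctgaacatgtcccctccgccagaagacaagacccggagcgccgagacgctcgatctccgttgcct
Sv2c: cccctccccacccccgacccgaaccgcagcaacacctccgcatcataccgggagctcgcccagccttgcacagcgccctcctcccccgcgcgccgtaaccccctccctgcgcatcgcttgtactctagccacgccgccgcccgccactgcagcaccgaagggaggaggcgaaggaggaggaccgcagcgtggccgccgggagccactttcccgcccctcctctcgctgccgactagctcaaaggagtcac
Syt10: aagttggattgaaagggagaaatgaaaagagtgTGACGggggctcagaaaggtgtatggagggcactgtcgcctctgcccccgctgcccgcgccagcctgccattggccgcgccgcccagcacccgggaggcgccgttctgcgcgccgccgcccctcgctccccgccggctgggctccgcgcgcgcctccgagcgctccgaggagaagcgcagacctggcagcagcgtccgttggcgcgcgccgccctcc
Stxbp5l: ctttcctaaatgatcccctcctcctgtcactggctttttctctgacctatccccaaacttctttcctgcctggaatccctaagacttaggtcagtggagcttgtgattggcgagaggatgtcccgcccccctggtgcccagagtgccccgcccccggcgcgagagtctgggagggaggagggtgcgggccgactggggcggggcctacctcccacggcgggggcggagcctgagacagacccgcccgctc
The Vamp4 window held 1 CACGTG and 1 TGACG, the Syt10 window held 1 TGACG, and the windows of Sv2c and Stxbp5l held neither. A second Vamp4 start had a window with neither motif. Of the 66 genes, 52 had a promoter window, 67 windows in all. CACGTG was found in 9 of these (13.4%), beside 6.02% of 32851 windows of the same length. TGACG on either strand was found in 12 (17.9%), beside 17.8%, and the full palindrome TGACGTCA, which contains it on both strands, in 2 (2.99%), beside 1.55%. A match to these letters is a description of the window and not a binding site.

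The neuronal core of the machinery showed no difference from saline whose 95% interval excluded 0 in any treated group, for any of its 12 measured genes (Syt1, Stx1a, Vamp1, Snap25, Cplx1, Cplx2, Syn1, Syn2, Sv2a, Sv2b, Unc13a and Rims1). Syt1, the calcium sensor of fast release, had values of -0.069, 0.055 and -0.073 in saline, 0.064, -0.069 and 0.011 in ethanol, -0.0055, 0.039 and -0.021 in mephedrone and -0.018, 0.0055 and 0.16 in the combination. Against saline it differed by 0.031 in ethanol (95% interval -0.092 to 0.15), 0.034 in mephedrone (-0.089 to 0.16) and 0.080 in the combination (-0.043 to 0.20). Snap25, the plasma membrane SNARE of neurons, had values of -0.010, 0.076 and -0.12 in saline, 0.032, -0.0033 and 0.021 in ethanol, -0.044, 0.023 and -0.073 in mephedrone and -0.086, 0.0033 and 0.14 in the combination. Its differences were 0.035 (-0.10 to 0.17), -0.013 (-0.15 to 0.12) and 0.039 (-0.096 to 0.17) in the same order. For both genes the intervals leave room for a change of at most about 0.2 on the log2 scale in either direction.

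Other core genes were measured less tightly. Stx1a, the neuronal syntaxin, had values of -0.087, 0.40 and -0.043 in saline, 0.23, -0.17 and 0.039 in ethanol, -0.093, 0.40 and 0.056 in mephedrone and -0.039, -0.052 and 0.69 in the combination. Its groups overlapped throughout, with high values on 1 or more arrays of every group, and the interval for ethanol against saline ran from -0.51 to 0.39. Vamp1, the VAMP of fast and motor synapses, had values of 0.20, -0.16 and -0.21 in saline, 0.31, 0.012 and 0.11 in ethanol, -0.14, -0.012 and -0.18 in mephedrone and 0.15, -0.16 and 0.72 in the combination. Combination replicate 3 was far above the others, and the difference of the combination from saline was 0.30 (95% interval -0.10 to 0.69). Rims1, an active zone scaffold, had values of -0.12, 0.16 and 0.0052 in saline, 0.18, -0.084 and 0.013 in ethanol, -0.048, 0.17 and -0.0052 in mephedrone and -0.040, -0.070 and 0.52 in the combination, once more with its maximum on combination replicate 3, and differed by 0.12 (-0.18 to 0.43) between combination and saline.

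The complexins and synapsins of the core had narrower ranges. Cplx1 and Cplx2, which bind the assembled SNARE complex, differed from saline by -0.085 (95% interval -0.25 to 0.084) and -0.038 (-0.15 to 0.071) in mephedrone. Syn1 and Syn2 differed by 0.011 (-0.16 to 0.18) and 0.031 (-0.095 to 0.16). In the combination the same 4 genes gave 0.054 (-0.11 to 0.22), -0.050 (-0.16 to 0.058), 0.11 (-0.060 to 0.29) and 0.086 (-0.040 to 0.21). Sv2a, the ubiquitous Sv2 form, differed by 0.0013 (-0.13 to 0.13) in mephedrone and 0.11 (-0.019 to 0.24) in the combination. Sv2b, with values of -0.35, 0.19 and -0.041 in saline, 0.0075, -0.25 and -0.070 in ethanol, -0.036, 0.20 and 0.051 in mephedrone and -0.0074, 0.080 and 0.19 in the combination, had low values on saline replicate 1 and ethanol replicate 2 and overlapped between all groups. It differed by 0.14 (-0.12 to 0.40) in mephedrone.

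**Figure D3:**
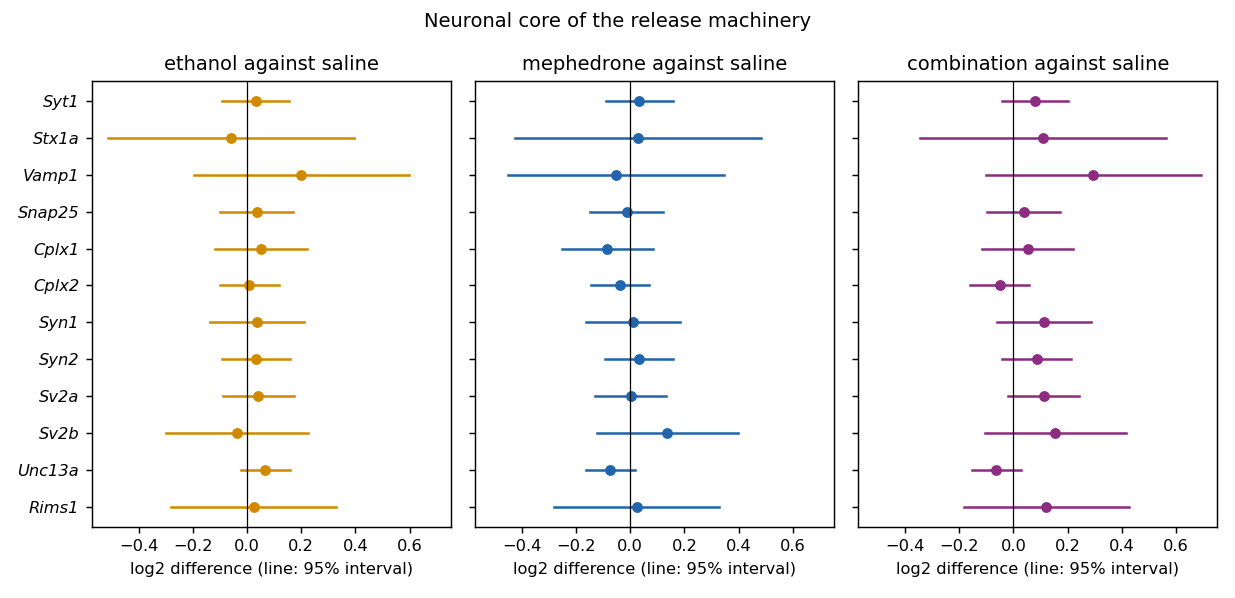
Log2 difference from saline (horizontal axis) with its 95% interval for the 12 measured genes of the neuronal core in ethanol, mephedrone and the combination (3 arrays against 3 each, sharing the saline arrays). Every interval contains 0, and those of Stx1a and Vamp1 are the widest.

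Each treatment was also set against saline; these 3 comparisons share the saline arrays. Ethanol against saline called 0 of 66 genes at a limma adjusted p of 0.05 (0% of all genes), and 4 (6.06%) at an unadjusted p under 0.05, beside 4.98% of all genes. The 2 with the smallest p were the syntaxins Stx5a and Stx8. Stx5a, the syntaxin of transport between endoplasmic reticulum and Golgi, had values of -0.11, -0.076 and -0.026 in saline, 0.062, 0.064 and 0.012 in ethanol, -0.0055, -0.028 and 0.017 in mephedrone and 0.011, -0.025 and 0.0055 in the combination. Every saline array lay below every ethanol array, and the difference was 0.12 ± 0.034 (SE, limma adjusted p = 0.997). Stx8, a syntaxin of late endosomes, had values of -0.088, -0.091 and -0.068 in saline, 0.066, 0.050 and -0.015 in ethanol, 0.0028, -0.018 and 0.064 in mephedrone and 0.024, -0.0028 and 0.092 in the combination, with the 3 saline arrays the lowest of all 12. It differed by 0.12 ± 0.038 in ethanol (limma adjusted p = 0.997), by 0.098 ± 0.038 in mephedrone and by 0.12 ± 0.038 in the combination.

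Mephedrone against saline called 0 (0% of all genes), and 8 of 66 (12.1%) had an unadjusted p under 0.05 beside 7.23%. Vamp4 differed by 0.23 ± 0.051 (limma adjusted p = 0.315), Syt10 by 0.54 ± 0.14 (0.409) and Sv2c by 0.25 ± 0.071 (0.455). The combination against saline called 0 (0.01% of all genes, 2 genes), and 9 (13.6%) had an unadjusted p under 0.05 beside 12.1%. There Vamp4 differed by 0.19 ± 0.051 (limma adjusted p = 0.196), Vamp7 by 0.18 ± 0.052 (0.236) and Syt10 by 0.44 ± 0.14 (0.272). Of the 66 genes 5 were without overlap between ethanol and saline, 10 between mephedrone and saline and 7 between combination and saline, beside 8.55%, 14.7% and 17.4% of all genes. Those are shares of 7.58%, 15.2% and 10.6% of the 66.

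The combination was set against each drug given alone. Against mephedrone, 0 of 66 genes were called (0% of all genes) and 1 (1.52%) had an unadjusted p under 0.05 beside 3.31%. That gene was Unc13d (Munc13-4), the priming factor of secretory granules in blood cells, with values of 0.0029, -0.0073 and -0.0097 in saline, -0.010, 0.050 and 0.068 in ethanol, 0.018, 0.093 and 0.11 in mephedrone and -0.024, -0.0097 and -0.0029 in the combination and a difference of -0.087 ± 0.035 (limma adjusted p = 0.992). Vamp7 followed at 0.11 ± 0.052 (0.992). Against ethanol, 0 were called (0.0251% of all genes, 5 genes) and 10 (15.2%) had an unadjusted p under 0.05 beside 9.73%. Stxbp5l differed by 0.16 ± 0.050 (limma adjusted p = 0.33), Vamp7 by 0.17 ± 0.052 (0.347), Unc13a by -0.13 ± 0.041 (0.348) and Stxbp3 by 0.27 ± 0.087 (0.363). Without combination replicate 3 the median over the 66 genes was -0.010 in place of 0.017 against mephedrone, and 0.0017 in place of 0.035 against ethanol.

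Mephedrone against ethanol called 0 (0% of all genes), and 8 of 66 (12.1%) had an unadjusted p under 0.05 beside 6.28%. Sv2c differed by 0.27 ± 0.071 (limma adjusted p = 0.535) and Unc13a by -0.14 ± 0.041 (0.616). For both, the 3 mephedrone arrays lay entirely on 1 side of the 3 ethanol arrays. No overlap between these groups was seen for 13 of the 66 genes (19.7%), beside 12.3% of all genes. Between combination and mephedrone it was 6 (9.09%, beside 9.38%), and between combination and ethanol 9 (13.6%, beside 13.2%).

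The ethanol main effect, the 6 arrays given ethanol against the 6 not given it, called 0 of 66 genes (0% of all genes), and 2 (3.03%) had an unadjusted p under 0.05 beside 4.57%. These were Stx8 at 0.069 ± 0.027 and Stx5a at 0.060 ± 0.024, both with a limma adjusted p of 0.941. No gene of the 66 was without overlap, beside 0.115% of all genes. The interaction is the ethanol difference in the presence of mephedrone minus that in its absence. It called 0 (0% of all genes), with 4 (6.06%) at an unadjusted p under 0.05 beside 3.54%. Syt3, a synaptotagmin of high calcium affinity, had values of 0.12, 0.014 and 0.044 in saline, -0.012, -0.0040 and -0.069 in ethanol, -0.047, -0.011 and 0.0040 in mephedrone and 0.057, -0.0070 and 0.075 in the combination and an interaction of 0.15 ± 0.056. Unc13d had -0.13 ± 0.050, and both had a limma adjusted p of 0.9999. The interval of the interaction lay within 0.3 of 0 for 39 of the 66 genes, beside 15375 of all 19938 genes. The interaction was thus measured less tightly than the mephedrone main effect.

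Many of these genes varied widely between arrays, also between arrays of the same treatment. The median range over the 12 arrays was 0.31 for the 66 genes, beside 0.23 for all genes, and the median residual SD within groups was 0.081 beside 0.066. A range over 0.5 was seen in 14 of the 66 genes, beside 1538 of all 19938. One under 0.2 was seen in 13 of the 66, among them Rims2, Stx12, Stx16 and Cplx4, beside 7398 of all 19938. Combination replicate 3 was the highest array for 29 of 66 genes (43.9%, beside 18.2% of all genes) and the lowest for 7 (10.6%, beside 13.4%). Ethanol replicate 2 was the lowest for 14 (21.2%, beside 6.72%) and saline replicate 3 for 12 (18.2%, beside 11.3%). The median of the 66 values on combination replicate 3 was 0.083.

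Syt17, a synaptotagmin relative of the Golgi and early endosomes, had the widest range, 1.04, with values of -0.10, 0.29 and -0.14 in saline, 0.74, -0.30 and -0.20 in ethanol, -0.11, 0.31 and 0.059 in mephedrone and 0.18, -0.059 and 0.23 in the combination. Ethanol replicate 1 stood alone at the top, and ethanol replicate 2 was lowest. Syt13, a synaptotagmin that does not bind calcium, ranged over 1.03 and Cplx3, the complexin of ribbon synapses and of deep cortical layers, over 0.99. Cplx3 had values of -0.086, 0.13 and -0.069 in saline, -0.086, -0.14 and -0.00040 in ethanol, 0.052, 0.00040 and -0.019 in mephedrone and 0.049, 0.077 and 0.85 in the combination, in which combination replicate 3 alone was far from 0. Syt6 had the opposite pattern, with -0.014, -0.094 and -0.63 in the combination and its lowest value on replicate 3. Unc13c (Munc13-3) had 0.064, 0.038 and -0.44, and all 7 of its probe sets had their lowest value on combination replicate 3, from -0.55 to -0.31, against -0.22 to 0.23 on the other 11 arrays. Snap23, the SNAP-25 relative of most tissues, had the widest range of the SNAP proteins, 0.51, with values of -0.022, 0.054 and -0.19 in saline, 0.20, 0.13 and -0.020 in ethanol, 0.036, -0.050 and -0.091 in mephedrone and -0.11, 0.020 and 0.33 in the combination.

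**Figure D4:**
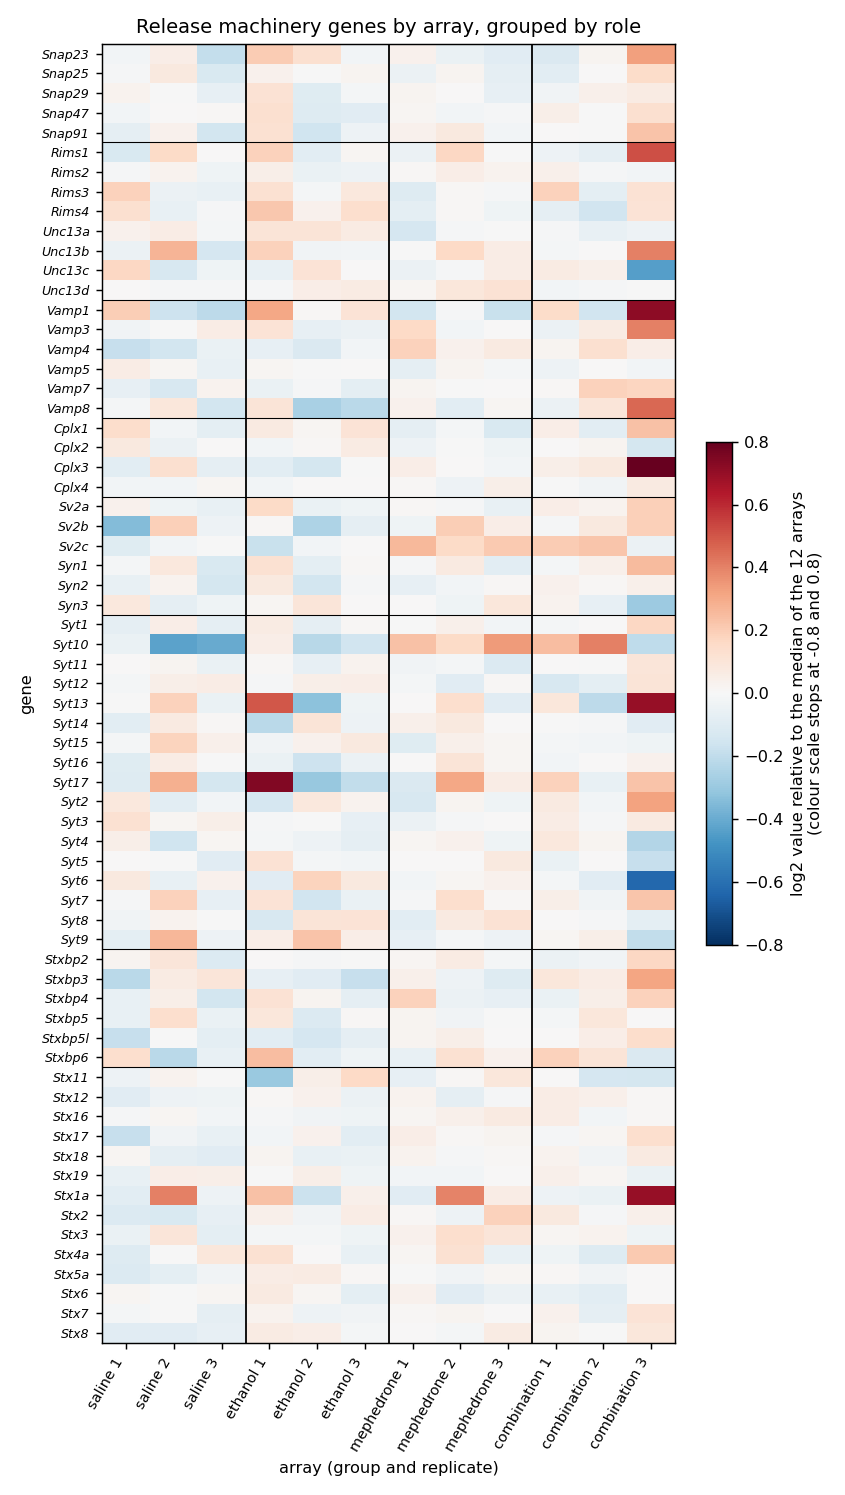
Log2 values relative to the probe set median of the 66 genes (rows, grouped by role) on the 12 arrays (columns, grouped by treatment), in colour. Combination replicate 3 holds the highest value (Cplx3, 0.85) and the lowest (Syt6, -0.63); Syt17 on ethanol replicate 1 (0.74) is second highest.

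Many of these genes varied across arrays with the mean of the cortical excitatory neuron markers. Over the 12 arrays 47 of 66 genes correlated positively with that mean and 19 negatively, a larger positive share than the 47.3% of all genes. An absolute Pearson's r over 0.7 was seen in 19 of the 66 (28.8%), beside 7.93% of all genes. Of 132 relations computed (66 genes against the cortical and the striatal marker means, permutation tests with 100000 resamples, Benjamini-Hochberg over all 132), 22 with the cortical mean passed 0.05 by r, 18 positive and 4 negative, and 9 of these passed by Spearman's rho too. The negative ones were Unc13c, Syn3, Syt6 and Cplx2. Stx1a had r = 0.95 (permutation p = 1e-05, the smallest the resamples can give, adjusted 0.00132) and rho = 0.86 (p = 0.00059, adjusted 0.026). Syt1 had r = 0.942 (p = 4e-05, adjusted 0.00176) and rho = 0.895 (p = 0.00025, adjusted 0.0224), and Unc13c had r = -0.894 (p = 0.00015, adjusted 0.0033) and rho = -0.797 (p = 0.00307, adjusted 0.048), all by permutation. The 2 arrays farthest from the median of the cortical mean were ethanol replicate 2 and combination replicate 3, and without them r was 0.913 for Stx1a, 0.875 for Syt1 and -0.782 for Unc13c.

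Without these 2 arrays 13 of the 22 kept an absolute r over 0.6. For Rims1 the coefficient was 0.932 with all arrays and 0.919 without the 2, and for Sv2b it was 0.85 and 0.87. For Cplx3 it was 0.789 and 0.383, so that the relation of Cplx3 rests on them. With group means removed, r was 0.958 for Stx1a, 0.971 for Syt1 and 0.947 for Rims1, so that the relation held within treatment groups. The 4 genes that led the mephedrone main effect were read the same way. Vamp4 had r = 0.247 (permutation p = 0.446, adjusted 0.572; rho = 0.245, p = 0.442), Sv2c -0.118 (p = 0.722; rho = -0.0769, p = 0.817) and Syt10 -0.126 (p = 0.703; rho = -0.0699, p = 0.833). Stxbp5l differed from these, with r = 0.768 (permutation p = 0.00371, adjusted 0.0213; rho = 0.587, p = 0.0492, adjusted 0.198) and 0.519 without the 2 arrays. With group means removed, r with the cortical mean was 0.00109 for Vamp4, -0.659 for Sv2c, -0.57 for Syt10 and 0.882 for Stxbp5l, and r with the striatal mean was 0.0629, 0.904, 0.437 and -0.57 in the same order. For Sv2c and Syt10 these coefficients were larger in size than those over all 12 arrays. Without combination replicate 3, and with group means kept, r with the cortical mean was 0.0591 for Sv2c and 0.0418 for Syt10. With the striatal mean it was 0.55 and 0.125. Coefficients with both that array and the group means removed are not given here, so a general relation within groups cannot be read from these values.

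The relations with the striatal projection neuron mean had the opposite sign for most genes. With all arrays, 46 of 66 genes correlated negatively with that mean and 20 positively, whereas 51.4% of all genes correlated positively. An absolute Pearson's r over 0.7 was seen in 21 of the 66 (31.8%), beside 11.4% of all genes. By r 22 passed, 4 positive and 18 negative, but 0 of these passed by rho, and 5 of 22 kept an absolute r over 0.6 without the 2 farthest arrays, ethanol replicate 1 and combination replicate 3. The others had an absolute r at or below 0.6 without those 2 arrays and rest on them. The 5 that kept it were Syt13 (-0.692), Syt7 (-0.657), Snap47 (-0.653), Syn3 (0.638) and Syt6 (0.601). All genes on an array share its tissue piece and its hybridisation, and the source of the shared variation was not tested.

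**Figure D5:**
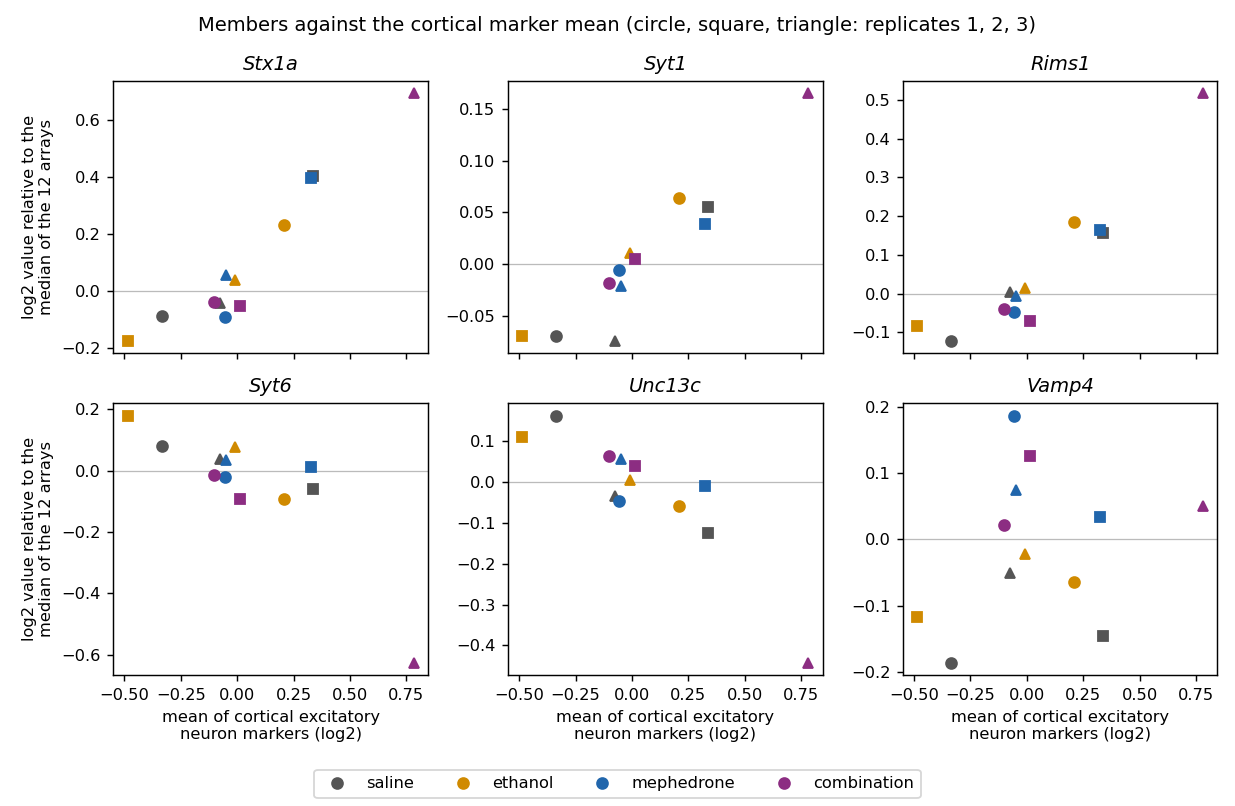
Log2 values of Stx1a, Syt1, Rims1, Syt6, Unc13c and Vamp4 (vertical axis) against the mean of 9 cortical excitatory neuron markers (horizontal axis) on the 12 arrays, coloured by treatment. Stx1a, Syt1, Rims1 and, downwards, Unc13c and Syt6 change along the marker mean (r of 0.95, 0.942, 0.932, -0.894 and -0.846), while Vamp4 has r = 0.247.

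The other genes of the release pathway were taken from 7 lists with 64 measured genes outside the symbol rule: vesicle membrane proteins, SNARE disassembly, active zone, priming and other sensors, presynaptic calcium channels, vesicle endocytosis, and transmitter loading. None was called in any of the 9 comparisons by limma. In the mephedrone main effect 6 had a higher and 4 a lower value in mephedrone-treated arrays at an unadjusted p under 0.05 (15.6%, beside 12.6% of all genes). Cacna1a, the pore of the P/Q-type calcium channel that triggers release, had the smallest p, with a difference of -0.14 ± 0.037 (SE, limma adjusted p = 0.135). Rab3gap1, which acts on the vesicle GTPase Rab3, differed by 0.090 (0.164), Syngr3, a vesicle membrane protein, by -0.13 (0.194), and Synpr, its relative synaptoporin, by 0.11 (0.197). Nsf, the ATPase that takes SNARE complexes apart, differed by 0.089 (0.292) and Syp, synaptophysin, by 0.16 (0.33).

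In the other comparisons the pathway gene with the smallest p was Slc18a2, the vesicular monoamine transporter, at 0.17 for ethanol against saline (limma adjusted p = 1). It was Synpr at 0.16 for mephedrone against saline (0.533) and Rab3gap1 at 0.13 for the combination against saline (0.211). Slc17a8, the vesicular glutamate transporter of a subset of interneurons, differed by -0.28 between combination and ethanol (0.345), and Syngr3 by -0.19 between mephedrone and ethanol (0.617). Bin1, an amphiphysin of membrane curvature, led both the combination against mephedrone at 0.17 (0.992) and the interaction at 0.23 (0.9999), and Itsn1, an endocytic scaffold, the ethanol main effect at 0.069 (0.941). The 15 endocytosis genes all had an ethanol main effect above 0, with a median of 0.036, beside 58.8% above 0 and a median of 0.0088 over all genes, and none passed. Both outlying arrays, ethanol replicate 1 and combination replicate 3, lay on the ethanol side, and values of these 15 genes without them are not given here. For the 66 genes the ethanol main effect had a median of 0.025 with all arrays, with 45 above 0. Without both arrays the median was -0.0042, with 32 above 0.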

How the data were processed

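Total RNA was labelled with biotin and hybridised to 12 arrays, 4 groups of 3, grouped by the source name of the labels. The authors deposited 1 table of log2 values for 28853 probe sets. The submitters' processing notes name RMA (background correction, quantile normalisation and probe summary) and the build mm8, and GeneSpring GX 7.3.1 is named in the design text of the series. No label states the log2 scale or the centring of each probe set on its median. Both were read from the deposited values, whose row medians are 0 within 7e-07. There are 0 missing values, and for arrays their number limits the precision.

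Values were used as deposited and averaged per gene over probe sets with 1 symbol (21789 probe sets, 19938 genes; 1621 with several symbols and 5443 not listed in the annotation were left out). Group means were fitted with limma 3.58.1 in R 4.3.3 (lmFit, contrasts.fit and eBayes, two-sided, 8 residual and 3.43 prior degrees of freedom), with Benjamini-Hochberg adjustment over all genes and a threshold of 0.05 for the F test and 9 contrasts. The procedure was tested on simulated data. Errors are standard errors of the fit, and intervals are at 95%.

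The members and the gene lists were chosen with earlier results of these data known. Named are the members that passed, the 6 with the smallest p in the F test, the 2 with the smallest p per contrast, 15 core genes (12 measured), and the member with the widest range per role, and of the other pathway genes the 1 with the smallest p per contrast. A few others named beside these (Stx12, Stx16, Rims2, Cplx4, Cplx3, Syt6, Syt13, Syn3, Unc13c, Nsf and Syp among them) were chosen after their values were seen. Marker lists for 10 cell types were averaged per array. The lists not described above ranged over the arrays from -0.10 to 0.28 for astrocytes, from -0.10 to 0.11 for microglia, from -0.10 to 0.16 for endothelium, from -0.14 to 0.25 for hypothalamic and ventral forebrain, from -0.18 to 0.58 for pituitary and from -0.40 to 0.20 for cholinergic interneurons. Promoter windows came from RefSeq GRCm38.p6. Alternatives were each array left out, the replicate number as a block, quantile normalisation, single probe sets, the compared arrays alone, array quality weights, both outlying arrays left out, list means as covariates, and the 30% of genes with the smallest spread left out.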

Additional observations from a re-analysis of the deposited data

How the results depend on the processing

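Of 196 counts of called genes over the 10 tests and their alternatives, 193 were 0 as in the fit to all arrays, and 3 were not, all in the mephedrone main effect. That count was 2 without ethanol replicate 1 and combination replicate 3 together and 3 with array quality weights, and 0 to 2 with each array left out, 2 being without combination replicate 3. The calls were of Sv2c, Syt10 and, with the weights, Vamp4. All 3 settings left out or gave less weight to combination replicate 3, the lowest mephedrone-treated array for Sv2c and Syt10. Of 37 values of named genes, 30 kept their sign in every alternative run, among them Vamp4 (0.16 to 0.20), Sv2c (0.19 to 0.28), Syt10 (0.33 to 0.54) and Stxbp5l (0.11 to 0.16) in the mephedrone main effect. The 7 whose sign turned were not called in that effect with any setting. With each array left out they ran from -0.024 to 0.18 for Stx1a, -0.099 to 0.12 for Vamp1, -0.036 to 0.022 for Snap25, -0.035 to 0.11 for Rims1, -0.067 to 0.043 for Snap23 and -0.041 to 0.22 for Syt17. With the covariates Stx1a was -0.073, Vamp1 -0.056, Syn1 -0.0063, Rims1 -0.048 and Syt17 -0.077. Vamp1 was also -0.053 after quantile normalisation, -0.058 when both arrays were left out and -0.016 with the array weights. The cause was not tested. The labels do not say that replicate numbers pair arrays, and of 18 same-number pairs 7 had a correlation of deviations over 0.1 (median 0.027, different numbers 0.026), with 3 of 12 arrays closest to their own number. With the replicate number as a block, 0 genes were called in the mephedrone main effect, where Vamp4 was 0.18 with a limma adjusted p of 0.125, and it changed no other call. Fits on the compared arrays alone give no separate value for the F test, the main effects and the interaction, which use all arrays, and genes left out by the spread filter have no value there.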
